A study of Homo sapiens with 8 samples.

Results

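The 68 loci described here lie among the variant U1 small nuclear RNA genes of human chromosome 1, in the stretches from 120.8 to 121 Mb and from 143 to 150 Mb of GRCh38, which also hold the HIST2 histone genes. They are every locus of those stretches with values in both tables of the study, 68 of 15469 loci with values in all. Of 80 loci listed in the stretches, the other 12 had a dash in place of every value. The members were chosen by position and by having values in both tables. The stretches were, however, proposed with the JQ1 responses of loci in them already known, so the counts of responding loci below are a description and no independent evidence.

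Long noncoding RNA was measured in HepG2 and LM3 cells, both hepatocellular carcinoma lines per their labels. JQ1 blocks the acetyl-lysine pockets of BET proteins and so releases them from chromatin. The groups were HepG2 with JQ1, HepG2 with the DMSO vehicle, LM3 with JQ1 and LM3 with the DMSO vehicle, each with 2 libraries. No dose, treatment time or genetic change is named for any group. No label says that the libraries of a group came from separate cultures, so the p-values measure only the spread between libraries, which may be technical.

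U1 RNA is the core of the spliceosomal particle that recognises 5′ splice sites by base pairing with its own 5′ end. Its short, intronless genes are transcribed by RNA polymerase II, and the Integrator complex cleaves the nascent RNA shortly after the mature 3′ end. The main U1 genes of chromosome 1p36 have diverged relatives on both sides of the centromere, the RNVU1 genes, some of which are transcribed, and many pseudogenes. Replication-dependent histone genes are likewise short, intronless units whose RNAs end in a stem-loop rather than a poly(A) tail.

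The GENCODE 29 annotation places 31 U1-family genes in the stretches, 12 of them pseudogenes by name, together with 15 histone genes. None of the U1-family genes of chromosome 1 was itself among the loci with values. Within 10 kb of a U1-family gene lay 27 of the 68 loci, within 10 kb of a histone gene lay 3, and 38 lay near neither. Of the 27, 8 were on the strand of a U1-family gene and began at its first base or within 10 kb after it, a position in which RNA running on past the U1 gene would be counted. The sequences of the U1 genes ahead of the loci whose values changed most are shown first, since the loci are best recognised by them. Each is the GENCODE 29 transcript on GRCh38, and capitals mark the letters ACTTACCT, which pair with a 5′ splice site, at bases 3 to 10, and AATTTGTGG, which holds the site of the Sm protein ring. RNVU1-19 lies at chr1:120850819-120850985 on the minus strand, RNVU1-14 at chr1:145281116-145281279 on the plus strand, RNVU1-6 at chr1:146052081-146052244 on the minus strand, and RNVU1-27 at chr1:148522601-148522765 on the plus strand. LOC124904613, at chr1:146376807-146376970 on the plus strand, and RNVU1-27 carry only the family name in GENCODE, and their gene names are those of RefSeq (GRCh38.p14) at the same coordinates.
RNVU1-19: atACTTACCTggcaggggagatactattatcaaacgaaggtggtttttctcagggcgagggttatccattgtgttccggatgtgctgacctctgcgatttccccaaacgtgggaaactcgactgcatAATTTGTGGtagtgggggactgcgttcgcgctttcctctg
RNVU1-14: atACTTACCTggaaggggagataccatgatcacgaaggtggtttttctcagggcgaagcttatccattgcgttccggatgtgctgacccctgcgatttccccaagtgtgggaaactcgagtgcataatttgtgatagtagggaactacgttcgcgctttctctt
RNVU1-6: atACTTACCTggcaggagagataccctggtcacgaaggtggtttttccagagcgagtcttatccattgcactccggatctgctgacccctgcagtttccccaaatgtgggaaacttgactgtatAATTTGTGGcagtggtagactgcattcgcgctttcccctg
RNVU1-27: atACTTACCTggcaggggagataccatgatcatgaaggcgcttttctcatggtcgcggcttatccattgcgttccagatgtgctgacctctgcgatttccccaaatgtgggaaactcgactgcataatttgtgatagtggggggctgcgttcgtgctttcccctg
LOC124904613: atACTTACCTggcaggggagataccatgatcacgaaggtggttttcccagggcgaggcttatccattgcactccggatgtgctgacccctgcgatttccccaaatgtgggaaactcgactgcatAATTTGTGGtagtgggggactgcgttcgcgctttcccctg

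All 5 begin with the same 11 bases as RNU1-1, the main U1 gene of 1p36, including ACTTACCT. LOC124904613 was identical to RNU1-1 over its 164 bases, a sequence shared by 6 genes of chromosome 1. RNVU1-19 was 92.2% identical to RNU1-1, RNVU1-27 91.5%, RNVU1-14 90.9% and RNVU1-6 90.9%. RNVU1-14 and RNVU1-27 had aatttgtga in place of AATTTGTGG, a change of the last letter only, so the missing match does not show that the Sm site is absent. Over all 31 U1-family genes of the stretches, identity to RNU1-1 was as low as 59.8%, 2 genes were identical to it, 15 had ACTTACCT at that place and 17 had AATTTGTGG. Values of loci that hold copies this alike are uncertain, because how the counting treated reads matching several of them is not given in the sources used here.

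AC245014.3 shows how such a locus is built. Its annotated transcript, at chr1:145281116-145281462, is RNVU1-14 followed without a gap by 183 more bases on the plus strand, shown next for the part that is not U1 (chr1:145281280-145281462).
AC245014.3 beyond RNVU1-14: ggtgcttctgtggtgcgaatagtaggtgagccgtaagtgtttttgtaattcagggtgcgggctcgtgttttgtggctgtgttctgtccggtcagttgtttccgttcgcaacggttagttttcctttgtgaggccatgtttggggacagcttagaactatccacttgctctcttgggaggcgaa

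ENSG00000287979 begins at the first base of RNVU1-19 and ENSG00000287190 at the first base of RNVU1-6 in the same way. In these 3 loci, reads of the U1 RNA itself and reads of the stretch beyond it cannot be told apart. LXLOC_001507 begins 273 bases after the first base of LOC124904613, LXLOC_001546 1180 bases after that of RNVU1-27 and LXLOC_001485 2677 bases after that of RNVU1-14, so these 3 hold no U1 sequence of that gene. Names that begin with LXLOC are the authors' own, for loci without an Ensembl ID.

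Values are FPKM, fragment counts divided by transcript length and by sequencing depth, which allows levels of loci of different length to be compared. A locus was tested in a line where its mean over the 4 libraries was at least 0.5 FPKM, and it is said to have risen or fallen with JQ1 where the adjusted limma p was under 0.05. Fold changes are the JQ1 mean minus the vehicle mean of log2(FPKM + 0.5), so those of low loci come out too small. Counted over the 68 loci, 41 could be tested in HepG2 and 43 in LM3, 40 of them in both, and 24 were too low in either line. In HepG2 12 rose and 4 fell, beside 10.8% called higher and 14.2% called lower of all 5906 loci tested. In LM3 10 rose and 7 fell, beside 7.92% called higher and 15.4% called lower of 6474 loci. Rises of at least 2-fold numbered 8 in HepG2 and 6 in LM3, beside 1.51% and 1.36% of all loci tested. These include LXLOC_001485 and AC243772.2 in both lines and LINC02804 in HepG2, which were tested only because they were high with JQ1. Of the loci tested, 4 in HepG2 and 4 in LM3 had passed the filter through 1 group only, and 4 and 3 of them were called. The same 10 loci were called higher in both lines, the same 4 were called lower in both, and none was called in opposite directions.

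Those counts rest on all 4 libraries of a line. Without JQ1 library 1 or JQ1 library 2 of HepG2, 0 of the 5906 loci passed, and without vehicle library 1 or 2 of HepG2, 7 and 9 of the members were called higher and 0 lower. In LM3 no locus of the table passed without any 1 library. With all libraries, 23 of 41 loci in HepG2 had an unadjusted limma p under 0.05, beside 2376 of all 5906 loci tested. In LM3 22 of 43 did, beside 2607 of all 6474 loci tested.

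JQ1 cells had more RNA than vehicle cells from most of the loci placed at or after the start of a U1-family gene on its strand. Whether their RNA is joined to that of the U1 gene was not tested. The 8 loci on the strand of a U1-family gene and at or after its start summed to 135.0 and 138.0 FPKM in the JQ1 libraries of HepG2, against 45.8 and 41.1 FPKM in the vehicle libraries. In LM3 they summed to 110.5 and 117.6 FPKM with JQ1, against 58.7 and 60.9 FPKM with vehicle. The JQ1 and vehicle sums did not overlap in either line. Most of each sum came from AC245014.3 and ENSG00000287979, which include the U1 gene itself.

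AC245014.3 was the most abundant of the 8 loci. It had 66.87 and 67.52 FPKM in HepG2 with JQ1, against 20.66 and 16.38 FPKM with vehicle. In LM3 it had 48.24 and 53.04 FPKM with JQ1, against 22.14 and 24.18 FPKM with vehicle. Both JQ1 libraries were far above both vehicle libraries in either line. The log2 fold change was 1.84 ± 0.13 (SE, adjusted p = 0.00615) in HepG2 and 1.11 ± 0.10 (adjusted p = 0.00906) in LM3.

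ENSG00000287979, on the strand of RNVU1-19 at chr1:120849674-120850985, changed more. It had 32.6 and 32.95 FPKM in HepG2 with JQ1, against 6.03 and 5.9 FPKM with vehicle. Its LM3 levels were 23.9 and 27.87 FPKM with JQ1, against 7.94 and 7.95 FPKM with vehicle. The libraries of a group lay close together and the groups were far apart in both lines. The log2 fold change was 2.36 ± 0.07 (adjusted p = 0.00144) in HepG2 and 1.64 ± 0.11 (adjusted p = 0.00565) in LM3.

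LXLOC_001485 and LXLOC_001546, which lie wholly downstream of RNVU1-14 and RNVU1-27, were low in vehicle cells and clearly present with JQ1. LXLOC_001485 (chr1:145283793-145289074) had 4.74 and 4.72 FPKM in HepG2 with JQ1, against 0.55 and 0.32 FPKM with vehicle. It had 3.05 and 2.84 FPKM in LM3 with JQ1, against 0.42 and 0.43 FPKM with vehicle. Its log2 fold changes were 2.49 ± 0.14 (adjusted p = 0.00487) in HepG2 and 1.90 ± 0.09 (adjusted p = 0.00533) in LM3, and in both lines it passed the filter on low values only through its JQ1 libraries. LXLOC_001546 (chr1:148523781-148531316) had 5.25 and 5.53 FPKM in HepG2 with JQ1, against 0.75 and 0.55 FPKM with vehicle. It had 3.7 and 3.64 FPKM in LM3 with JQ1, against 0.7 and 0.72 FPKM with vehicle. Its log2 fold changes were 2.36 ± 0.12 (adjusted p = 0.00347) and 1.79 ± 0.08 (adjusted p = 0.00533) in HepG2 and LM3.

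LXLOC_001507 (chr1:146377080-146378384), beside the gene identical to RNU1-1, had 5.68 and 6.23 FPKM in HepG2 with JQ1, against 2.11 and 2.1 FPKM with vehicle. It had 5.28 and 6.45 FPKM in LM3 with JQ1, against 2.44 and 2.62 FPKM with vehicle. Both groups were clearly apart in both lines, and the log2 fold changes were 1.31 ± 0.09 (adjusted p = 0.00554) in HepG2 and 1.07 ± 0.12 (adjusted p = 0.0119) in LM3. ENSG00000287190 (chr1:146050441-146052244), which begins at the first base of RNVU1-6, had 4.11 and 4.26 FPKM in HepG2 with JQ1, against 1.82 and 1.58 FPKM with vehicle. LM3 cells had 4.0 and 4.93 FPKM with JQ1, against 2.73 and 3.18 FPKM with vehicle. The groups did not overlap in either line, but the test was passed in HepG2 (log2 fold change 1.09 ± 0.09, adjusted p = 0.0075) and not in LM3 (0.52 ± 0.14, adjusted p = 0.0626).

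The other 2 loci in this position did not pass the test. LXLOC_004223 (chr1:145407586-145425702) begins 5991 bases after the first base of RNU1-154P, a pseudogene 69.05% identical to RNU1-1, which is shown for comparison with the genes above and has neither of the capitalised runs.
RNU1-154P: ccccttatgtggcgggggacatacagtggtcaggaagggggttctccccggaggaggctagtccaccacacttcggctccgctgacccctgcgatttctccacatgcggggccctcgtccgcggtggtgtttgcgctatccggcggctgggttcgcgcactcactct

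LXLOC_004223 had 15.7 and 16.75 FPKM in HepG2 with JQ1, against 13.63 and 14.27 FPKM with vehicle, a log2 fold change of 0.21 ± 0.07 (adjusted p = 0.109). In LM3 it had 22.12 and 18.75 FPKM with JQ1, against 22.3 and 21.73 FPKM with vehicle, with overlapping groups. AC245100.7, 3847 bases after the first base of RNVU1-1, was at 0 to 0.25 FPKM in HepG2 and 0.06 to 0.17 FPKM in JQ1 libraries of LM3, too low to test. Leaving out LXLOC_001485, which was tested only because it was high with JQ1, 5 of the other 6 tested loci at or after a U1 start rose at least 2-fold in HepG2 and 4 of 6 in LM3, and none fell, beside rises of that size in 1.51% and 1.36% of all loci tested. Their median log2 fold change was 1.57 in HepG2 and 1.09 in LM3, where the median over all loci tested was -0.0056 and -0.084.

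**Figure D1:**
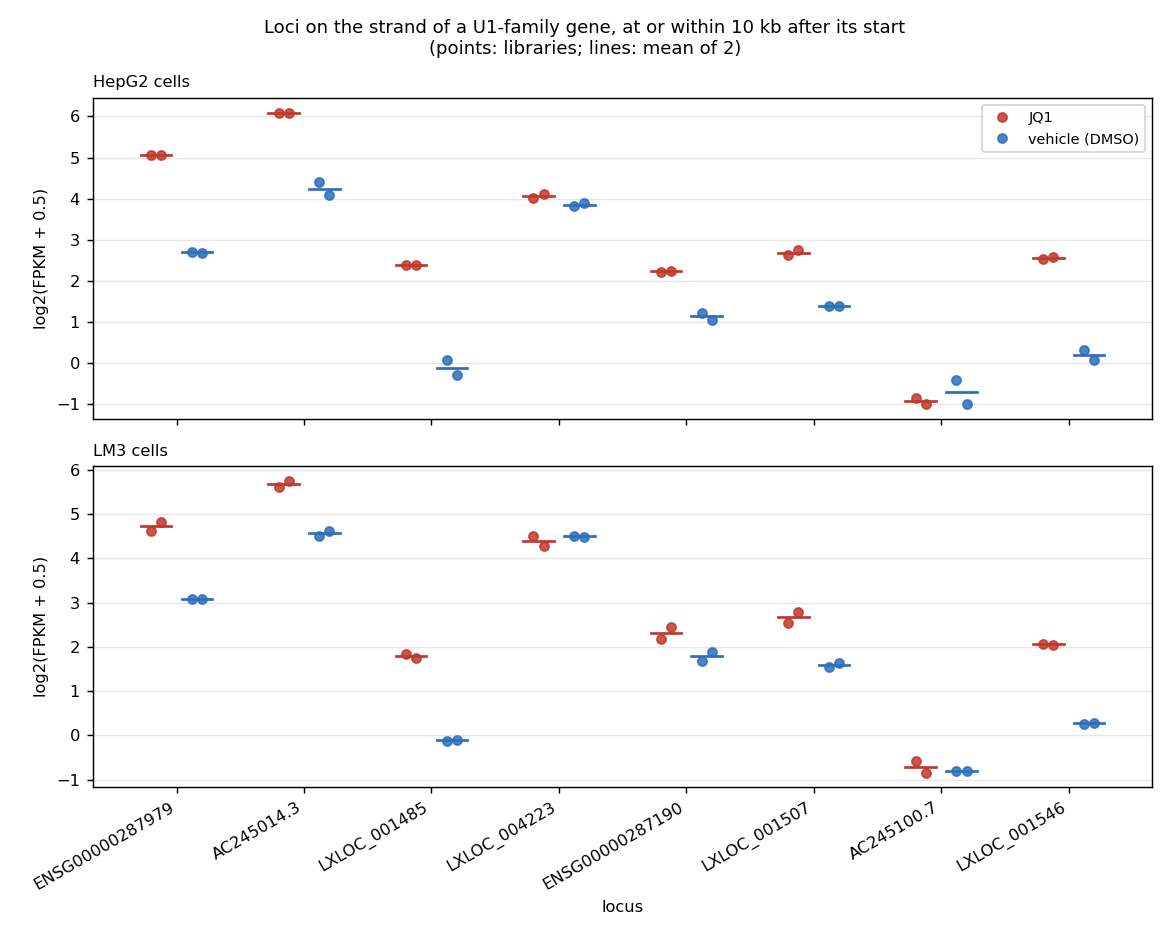
Level of the 8 loci on the strand of a U1-family gene, at its start or within 10 kb after it, as log2(FPKM + 0.5), with HepG2 above and LM3 below. Points are libraries, JQ1 in red to the left of vehicle in blue, and lines are means of 2. The JQ1 points lie above the vehicle points in both lines for every locus but LXLOC_004223, whose groups overlap in LM3, and AC245100.7, which is near 0 FPKM.

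The other loci near U1 genes had log2 fold changes of either sign. Of 19 such loci, on the opposite strand, upstream or around the U1 gene, 9 were tested in HepG2. Of the 9, 1 rose and none fell, beside 10.8% called higher and 14.2% called lower of all loci tested. Their log2 fold changes ran from -0.70 to 1.11, with a median of 0.016. In LM3 11 were tested, of which 1 rose and 2 fell, beside 7.92% called higher and 15.4% called lower of all loci tested. There the log2 fold changes ran from -0.64 to 0.86, with a median of -0.11. The lowest in HepG2 was LXLOC_001565, on the other strand and 1197 bases past the end of RNU1-68P. It had 0.64 and 1.23 FPKM with JQ1, against 1.83 and 1.73 FPKM with vehicle (adjusted p = 0.0855). Its LM3 levels were 0.79 and 1.12 FPKM with JQ1, against 1.39 and 1.91 FPKM with vehicle (adjusted p = 0.0984). Its groups did not overlap in either line, but it did not pass the test. The locus that rose in both lines was LINC02804 (chr1:148013203-148025934, plus strand), which runs across the pseudogene RNU1-129P on the other strand. It had 1.23 and 1.66 FPKM in HepG2 with JQ1, against 0.39 and 0.4 FPKM with vehicle (log2 fold change 1.11 ± 0.14, adjusted p = 0.0116). Its LM3 levels were 3.39 and 3.55 FPKM with JQ1, against 1.56 and 1.81 FPKM with vehicle (0.86 ± 0.10, adjusted p = 0.0119). Its groups did not overlap in either line, and in HepG2 it passed the filter only through its JQ1 libraries.

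LINC01719 gives a divergent partner to set against ENSG00000287190. It begins 322 bases from RNVU1-6 and runs the opposite way. Its RefSeq promoter window (GRCh38.p14, chr1:146052346-146052645, plus strand) covers most of the interval between the pair and is shown for that reason, with the bases from its start onward in capitals.
LINC01719 promoter: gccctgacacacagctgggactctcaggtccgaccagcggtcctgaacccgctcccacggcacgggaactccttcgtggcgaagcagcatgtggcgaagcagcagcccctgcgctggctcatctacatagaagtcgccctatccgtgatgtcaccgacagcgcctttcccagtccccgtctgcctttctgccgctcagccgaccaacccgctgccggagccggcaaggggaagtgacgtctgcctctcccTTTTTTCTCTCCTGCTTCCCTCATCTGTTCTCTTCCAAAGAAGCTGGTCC

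The letters ATGCAAAT, the octamer found in enhancers of small nuclear RNA genes, were searched on both strands of this window without a match. They occur in 1.77% of the 35116 RefSeq promoter windows of the same 300 bases, and their absence here says nothing about factors bound outside or inside the window. LINC01719 had 1.04 and 0.99 FPKM in HepG2 with JQ1, against 0.86 and 0.85 FPKM with vehicle (log2 fold change 0.16 ± 0.09, adjusted p = 0.247). LM3 cells had 1.36 and 1.22 FPKM with JQ1, against 0.92 and 1.25 FPKM with vehicle, with overlapping groups (0.18 ± 0.14, adjusted p = 0.385). Whether the pair differ in response was not tested.

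The remaining loci that overlap a U1-family gene did not rise. LINC01138, which spans RNU1-122P, RNVU1-1, RNVU1-2, RNU1-13P and RNVU1-3, had 3.15 and 2.43 FPKM in HepG2 with JQ1, against 2.75 and 3.07 FPKM with vehicle. It had 2.83 and 2.81 FPKM in LM3 with JQ1, against 3.15 and 3.79 FPKM with vehicle (adjusted p = 0.787 in HepG2 and 0.173 in LM3). LXLOC_004266 overlaps LINC01138 on the same strand, spans the same 5 genes and may share reads with it. It did not pass the test in either line (adjusted p = 0.271 in HepG2 and 0.569 in LM3). LXLOC_004219, across RNU1-153P on the other strand, had 1.6 and 1.3 FPKM in LM3 with JQ1, against 2.5 and 2.57 FPKM with vehicle, and fell there (log2 fold change -0.64 ± 0.11, adjusted p = 0.0254, or 0.0544 without the filter on low values). In HepG2 its JQ1 libraries were at 1.55 and 1.74 FPKM and its vehicle libraries at 1.97 and 1.83 FPKM (adjusted p = 0.275). LINC02591, AC245100.1 and LXLOC_001562 also overlap a U1-family gene and were too low to test in either line.

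**Figure D2:**
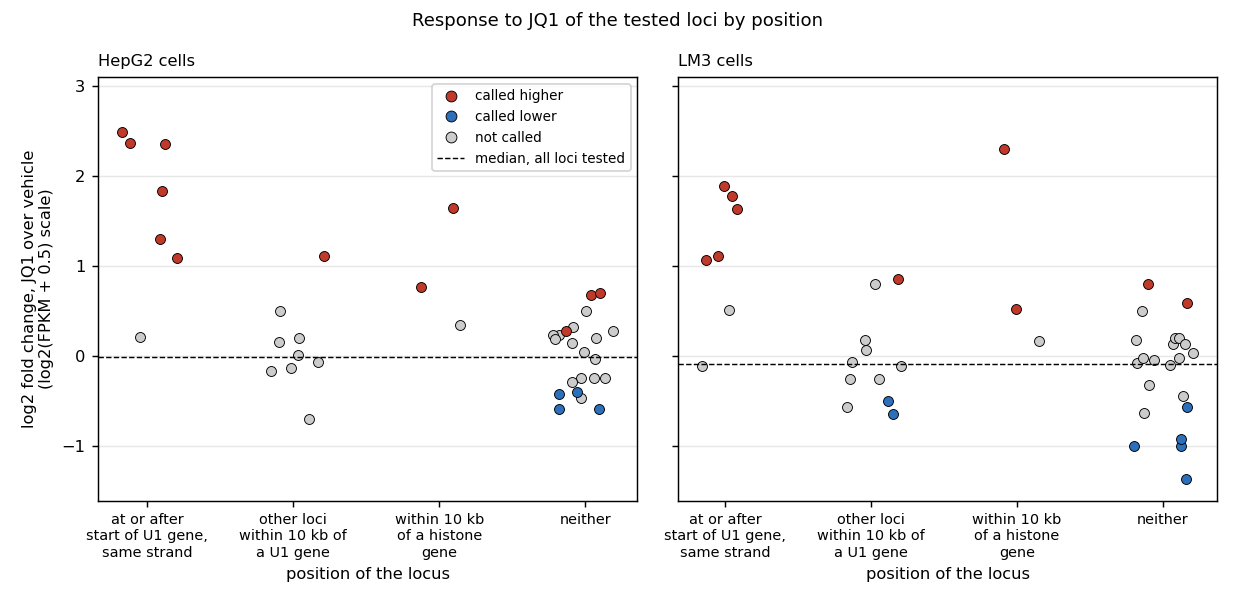
Log2 fold change of JQ1 over vehicle for each tested locus, by position relative to U1-family and histone genes, in HepG2 (left) and LM3 (right). Red points were called higher, blue points lower and grey points neither, and the dashed line is the median of all loci tested. The loci at or after a U1 start on its strand lie between 0.21 and 2.49 in HepG2 and between -0.11 and 1.90 in LM3.

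The 3 loci at histone genes were AC243772.2, AC239868.1 and LXLOC_001571. AC243772.2 (chr1:149785659-149793020, minus strand) lies inside the long HIST2H2BF transcript unit on its strand and opposite FCGR1A, an immunoglobulin receptor gene. HIST2H2BF encodes a histone H2B. AC243772.2 had 1.18 and 1.29 FPKM in HepG2 with JQ1, against 0.06 and 0.05 FPKM with vehicle. In LM3 it had 2.26 and 2.03 FPKM with JQ1, against 0.03 and 0.04 FPKM with vehicle. It was thus close to absent in every vehicle library and present in every JQ1 library. The log2 fold change was 1.64 ± 0.12 (adjusted p = 0.00615) in HepG2 and 2.30 ± 0.12 (adjusted p = 0.00533) in LM3, and it passed the filter only through the JQ1 libraries. With so low a vehicle level the size depends on the constant added, and other settings gave values between 1.08 and 3.11 in HepG2 and between 1.60 and 4.05 in LM3.

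AC239868.1 (chr1:149861271-149862504, plus strand) begins 61 bases from HIST2H4B, a histone H4 gene also named H4C15, and runs away from it. The RefSeq promoter window of H4C15 (GRCh38.p14, chr1:149861110-149861409, minus strand) holds both starts and is shown for that reason, with the bases from the H4C15 start onward in capitals.
H4C15 promoter: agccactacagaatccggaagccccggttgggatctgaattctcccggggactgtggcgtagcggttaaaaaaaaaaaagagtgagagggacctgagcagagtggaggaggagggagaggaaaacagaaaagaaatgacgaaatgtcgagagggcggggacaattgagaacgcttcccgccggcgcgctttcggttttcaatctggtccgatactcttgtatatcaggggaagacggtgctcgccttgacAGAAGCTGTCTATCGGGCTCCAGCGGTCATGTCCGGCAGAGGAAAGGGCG

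This window held neither ATGCAAAT nor TATAAA on either strand, and 11.5% of all RefSeq windows hold TATAAA. AC239868.1 had 2.97 and 2.81 FPKM in HepG2 with JQ1, against 1.28 and 1.72 FPKM with vehicle (log2 fold change 0.77 ± 0.13, adjusted p = 0.0224). Its LM3 levels were 2.97 and 3.39 FPKM with JQ1, against 2.0 and 2.1 FPKM with vehicle (0.53 ± 0.10, adjusted p = 0.03). The groups did not overlap, but without the filter on low values the adjusted p was 0.053 in HepG2 and 0.0636 in LM3. LXLOC_001571, opposite the H2B gene HIST2H2BE, had 2.6 and 3.38 FPKM in HepG2 with JQ1, against 2.25 and 2.2 FPKM with vehicle (0.35 ± 0.13, adjusted p = 0.127). LM3 cells had 4.08 and 2.93 FPKM with JQ1, against 2.94 and 3.1 FPKM with vehicle, with overlapping groups. Whether strand was used in counting is not given in the sources used here, so reads of a gene on the other strand cannot be told apart from those of the locus. AC243772.2 shares its strand with HIST2H2BF, so reads of that gene could be counted in it whether or not strand was used.

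Of the 38 loci near neither kind of gene, LXLOC_001492 and LXLOC_001493 rose in both lines. They lie next to each other at chr1:145672821-145693537 on the strand opposite PDZK1, a scaffold protein gene. LXLOC_001492 had 2.9 and 2.95 FPKM in HepG2 with JQ1, against 1.63 FPKM in both vehicle libraries (log2 fold change 0.69 ± 0.08, adjusted p = 0.0103). In LM3 it had 5.19 and 4.95 FPKM with JQ1, against 3.19 FPKM in both vehicle libraries (0.59 ± 0.08, adjusted p = 0.0166). LXLOC_001493 had 1.0 and 0.89 FPKM in HepG2 with JQ1, against 0.38 and 0.4 FPKM with vehicle (0.70 ± 0.10, adjusted p = 0.0149). Its LM3 levels were 2.3 and 2.07 FPKM with JQ1, against 0.95 and 1.14 FPKM with vehicle (0.80 ± 0.11, adjusted p = 0.0164). In HepG2 it passed the filter only through its JQ1 libraries. The pair kept the same order of levels in every library, LXLOC_001492 above LXLOC_001493.

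The most abundant loci of the stretches overlapped NBPF genes on their strand. NBPF genes form a primate-expanded family of repeat-rich coding genes, and their own reads would be counted in these loci. LXLOC_001560, across NBPF19, had 86.28 and 86.43 FPKM in HepG2 with JQ1, against 70.99 and 71.01 FPKM with vehicle (log2 fold change 0.28 ± 0.06, adjusted p = 0.041). LM3 cells had 105.34 and 104.76 FPKM with JQ1, against 107.17 and 105.5 FPKM with vehicle (-0.02 ± 0.07, adjusted p = 0.883). The HepG2 call is small in size and was lost under 6 other settings, with adjusted p from 0.0563 to 0.117. LXLOC_001438, across NBPF26, had 73.55 and 75.08 FPKM in HepG2 with JQ1, against 63.97 and 62.03 FPKM with vehicle (adjusted p = 0.0657). LXLOC_004280, across NBPF9, had 51.89 and 54.8 FPKM in HepG2 with JQ1, against 45.29 and 47.73 FPKM with vehicle (adjusted p = 0.121). In LM3 the JQ1 and vehicle libraries of both overlapped, at 64.31 to 111.19 FPKM.

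A group of 4 loci fell in both lines. AC245297.3, at chr1:149175748-149259987 on the plus strand, overlaps both LXLOC_001553 and LXLOC_001554 on its strand and may hold the same reads as each of them. LXLOC_001553 and LXLOC_001554 do not overlap each other. AC245297.3 had 3.99 and 4.27 FPKM in HepG2 with JQ1, against 5.56 and 5.6 FPKM with vehicle (log2 fold change -0.39 ± 0.08, adjusted p = 0.0305). In LM3 it had 2.95 and 2.94 FPKM with JQ1, against 5.73 and 6.25 FPKM with vehicle (-0.91 ± 0.09, adjusted p = 0.0096). LXLOC_001553 fell by 0.58 in HepG2 (adjusted p = 0.0165) and by 0.99 in LM3 (adjusted p = 0.0117) on the log2 scale. LXLOC_001554 fell by 0.59 in HepG2 (adjusted p = 0.0261) and by 0.99 in LM3 (adjusted p = 0.0123). All of their JQ1 libraries were below all of their vehicle libraries in both lines. With overlapping loci left out of the table, 1 of the 68 loci fell in HepG2 and 4 in LM3.

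The fourth was LXLOC_001461 (chr1:143775444-143778938). It had 1.81 and 2.01 FPKM in HepG2 with JQ1, against 2.86 and 2.57 FPKM with vehicle (log2 fold change -0.42 ± 0.10, adjusted p = 0.0435). Its LM3 levels were 2.48 and 2.38 FPKM with JQ1, against 3.87 and 3.75 FPKM with vehicle (-0.56 ± 0.08, adjusted p = 0.019). Without the filter on low values, the HepG2 adjusted p was 0.0919 for LXLOC_001461, 0.0679 for AC245297.3 and 0.0607 for LXLOC_001554. With the replicate number as a block, it was 0.062 for LXLOC_001461 and 0.0507 for AC245297.3.

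LXLOC_001564 (chr1:149683349-149683798) had the largest fall among the 68 loci, in LM3. It had 1.21 and 1.8 FPKM in LM3 with JQ1, against 4.81 and 4.37 FPKM with vehicle (log2 fold change -1.36 ± 0.17, adjusted p = 0.0139). In HepG2 it had 1.83 and 2.46 FPKM with JQ1, against 2.97 and 2.46 FPKM with vehicle, so the groups met at 2.46 FPKM (adjusted p = 0.252). AC239800.2, under 1 FPKM in every library, also fell in LM3 (log2 fold change -0.50, adjusted p = 0.048). It passed the filter only through its vehicle libraries and lost that call under 6 other settings, with adjusted p from 0.0508 to 0.0876.

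**Figure D3:**
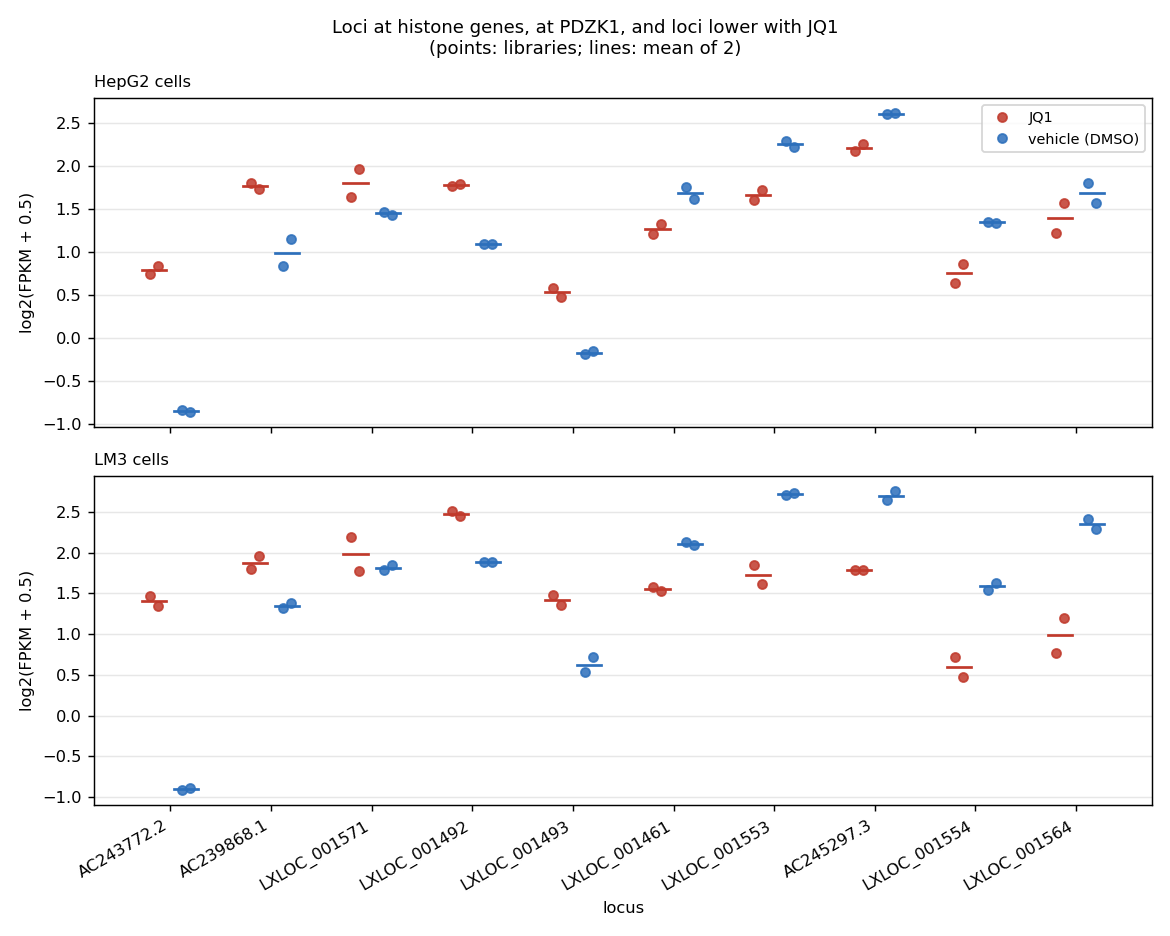
Level of the 3 loci at histone genes, the 2 loci opposite PDZK1 and 5 loci with lower values in JQ1 libraries, as log2(FPKM + 0.5), with HepG2 above and LM3 below. Points are libraries, JQ1 in red to the left of vehicle in blue, and lines are means of 2. AC243772.2 stands at 0.03 to 0.06 FPKM in the vehicle libraries and at 1.18 to 2.26 FPKM in the JQ1 libraries.

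Ribosomal and mitochondrial loci made up more of the JQ1 libraries, at 17.13% and 18.1% of summed FPKM in HepG2 with JQ1, against 15.3% and 15.9% with vehicle. In LM3 they made up 21.2% and 22.8% with JQ1, against 18.9% and 19.6% with vehicle. With values rescaled to leave these loci out, 12 loci rose and 4 fell in HepG2, and 11 rose and 6 fell in LM3. The FPKM of all loci summed to 29369 to 35742 per library, and 11230 to 12332 loci were above 0. The 68 loci together had 426.6 and 441.3 FPKM in HepG2 with JQ1, against 307.4 and 300.8 FPKM with vehicle. In LM3 the 68 summed to 509.1 and 480.4 FPKM with JQ1, against 427.5 and 445.0 FPKM with vehicle. In bulk RNA such as this, fewer cells with a transcript and less of it per cell cannot be told apart.

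Coding markers of liver cells are not among the loci analysed here, so the labelled cell type was set against noncoding markers. H19, an imprinted RNA abundant in fetal liver and HepG2, stood at 2101 to 2234 FPKM in HepG2 with JQ1 and 2038 to 2249 FPKM with vehicle, and at 310 to 348 FPKM in all LM3 libraries. The other hepatic markers were low, and their sum was 2.51 and 2.72 FPKM in HepG2 with JQ1, against 9.14 and 9.38 FPKM with vehicle. In LM3 it was 1.24 and 1.02 FPKM with JQ1, against 2.14 and 2.16 FPKM with vehicle. Most of the HepG2 difference was CPS1-IT1, at 1.33 and 1.22 FPKM with JQ1, against 6.84 and 6.79 FPKM with vehicle, whereas LINC01554 was at 0.3 and 0.31 FPKM with JQ1, against 0.21 FPKM in both vehicle libraries. Of 10 markers of other cell types, 8 had values and summed to 5.62 and 5.81 FPKM in HepG2 with JQ1, against 11.3 and 11.8 FPKM with vehicle. In LM3 they summed to 9.34 and 10.9 FPKM with JQ1, against 11.5 and 11.6 FPKM with vehicle, with 1 or 2 of the 8 at 0 in each library. Without FENDRR, a mesenchymal marker, the sums were 2.91 and 2.93 FPKM in HepG2 with JQ1, against 2.98 and 2.66 FPKM with vehicle, and 8.32 and 9.83 FPKM in LM3 with JQ1, against 8.11 and 8.16 FPKM with vehicle. The part of these markers in the responses above was not tested.

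No difference between the lines passed the test among these loci. The response in LM3 minus that in HepG2 was called for 0 of 40 loci, by limma over 5035 loci of which 0.218% were called. An unadjusted limma p under 0.05 was found for 12 of the 40, beside 604 of all 5035 loci. The median difference was -0.24 among the 40 and -0.075 among all loci tested. Of the loci at or after a U1 start, ENSG00000287979 had log2 fold changes of 1.64 in LM3 and 2.36 in HepG2, a difference of -0.72 ± 0.12 (adjusted p = 0.118). AC245014.3 had 1.11 in LM3 and 1.84 in HepG2, a difference of -0.73 ± 0.17 (adjusted p = 0.211). All 7 tested loci in that position had a smaller value in LM3 than in HepG2, with differences from -0.73 to -0.24. The direction is not particular to that position, since most of the 40 loci shared it. The share of loci with that direction over the whole series was not counted. AC243772.2 went the other way, with 2.30 in LM3 and 1.64 in HepG2, a difference of 0.66 ± 0.15 (adjusted p = 0.198). LXLOC_001565, LXLOC_001493, LXLOC_004195, LXLOC_001512 and LINC01719 also had a higher log2 fold change in LM3, by 0.02 to 0.14. A p above the threshold does not show that the lines responded alike.

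**Figure D4:**
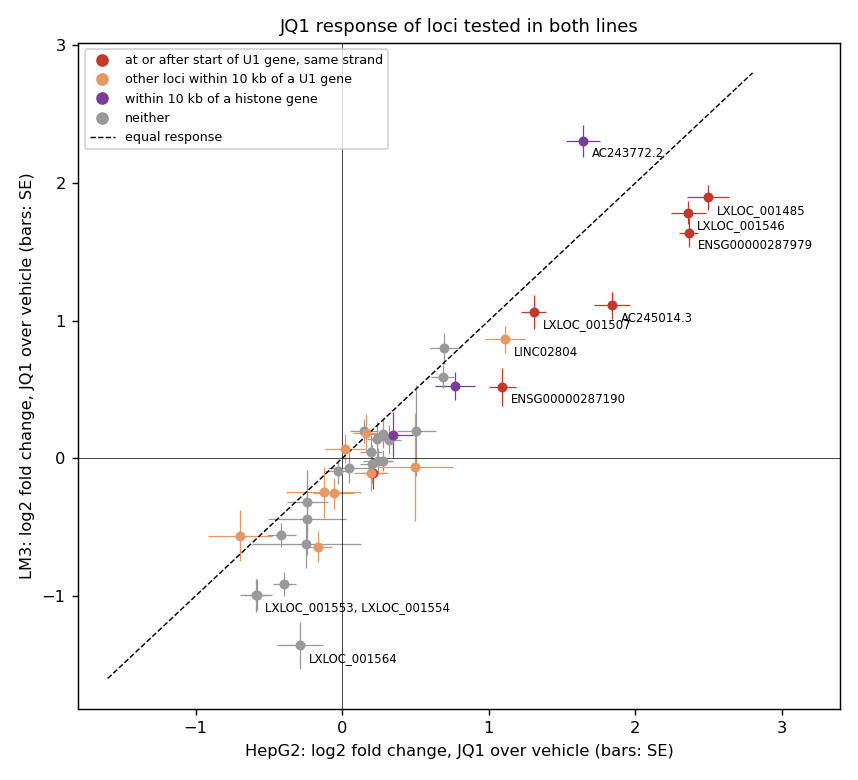
Log2 fold change of JQ1 over vehicle in LM3 (vertical axis) and HepG2 (horizontal axis) for the 40 loci tested in both lines. Points are loci, coloured by position, with bars of 1 SE, and the dashed line marks equal responses. Most points lie below the line, the 7 loci at or after a U1 start among them, and AC243772.2 lies farthest above it.

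The same distance rule was applied to related genes elsewhere. Loci within 10 kb of the main U1 genes at 1p36 numbered 8, of which 3 were tested in HepG2, with 0 higher and 1 lower (median log2 fold change -0.31), and 2 in LM3, with none called. By coordinates and strand, no locus of the 8 began at or after the start of a U1-family gene on that gene's strand. The response in that position at 1p36 therefore cannot be read from them. The other lists were not split by strand or side. None of the 8 was above 5 FPKM in a JQ1 library, and BX284668.5, the one that fell, had 4.52 and 4.72 FPKM in HepG2 with JQ1, against 6.58 and 6.24 FPKM with vehicle. Loci at other small nuclear RNA genes transcribed by polymerase II had 7 of 10 tested higher in HepG2 (median 1.46) and 5 of 8 in LM3 (median 1.05), and none lower. Of the 7, 4 lie in the U2 array of chromosome 17, where LXLOC_024649, LXLOC_024650 and LXLOC_024651 overlap and may share reads, while LXLOC_024647 stands apart from them. Loci at polymerase III genes such as RMRP had 0 of 6 called in HepG2 (median 0.11, 0 at an unadjusted p under 0.05) and 0 of 5 in LM3 (median 0.15, 1 at an unadjusted p under 0.05). Loci at histone genes of chromosome 6 had 8 of 15 higher in HepG2 (median 0.69) and 5 of 10 in LM3 (median 0.46), and none lower. Among them, LXLOC_047923, LXLOC_046381, LXLOC_047984 and LXLOC_047934 in HepG2 and LXLOC_047934 and LXLOC_047960 in LM3 passed the filter only through their JQ1 libraries. Over all loci tested, 10.8% were called higher and 14.2% lower in HepG2, and 7.92% and 15.4% in LM3. An unadjusted limma p under 0.05 was found for 2376 of all 5906 loci in HepG2 and 2607 of 6474 in LM3. Differences between these lists were not tested.

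At the ends of the stretches, the loci just inside and just outside were as follows, as a description only. LXLOC_001443, the last inside 121 Mb, had 1.12 and 1.22 FPKM in HepG2 with JQ1, against 1.02 and 2.06 FPKM with vehicle. LINC00623, which crosses 121 Mb and so falls outside, had 5.26 and 5.94 FPKM in HepG2 with JQ1, against 9.96 and 10.72 FPKM with vehicle. The first locus beyond 150 Mb, ENSG00000285184, had 1.19 and 1.54 FPKM in HepG2 with JQ1, against 1.27 and 1.1 FPKM with vehicle, and the last inside was LXLOC_001571, given above. LXLOC_001438, given above, is the first inside 120.8 Mb, and LXLOC_001435, the nearest before it, had 2.62 and 2.56 FPKM in HepG2 with JQ1, against 3.21 and 2.41 FPKM with vehicle. LINC02799, the first locus after 143 Mb, was at 0 FPKM in all 4 HepG2 libraries.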

How the data were processed

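FPKM values were deposited by the authors in 1 table for each cell line, per the file headers, from total RNA depleted of ribosomal RNA and sequenced in read pairs, per the labels' protocols. Per the submitters' processing notes, the tools and builds listed were Bowtie 0.12.2, hg19 and mm8, with no role stated. The coordinates are nevertheless those of GRCh38, since all of 8453 Ensembl IDs found in GENCODE 29 were on the same chromosome and 83.9% had the same start. How fragments were counted, on which annotation and with which strand setting, is not given in the sources used here. Low values did not fall cleanly on whole-fragment steps, as 32.4% to 57.4% lay within 0.1 of one at the best-fitting step size. The share that would lie there without steps was not computed. Counts were thus not recovered, the depth is unknown, and only the spread between libraries gives the error.

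Within each table, JQ1 was compared with vehicle by limma 3.58.1 (R 4.3.3, trend and robust fitting, two-sided) on log2(FPKM + 0.5), for loci averaging 0.5 FPKM or more in a line's 4 libraries. P-values were adjusted by Benjamini-Hochberg over all loci tested, with a threshold of 0.05. The difference between lines was tested in 1 fit over all 8 libraries, for loci passing in both tables. The limma tests were first tried on simulated data. Positions were taken from GENCODE 29, and U1 genes that it names only by the Rfam family RF00003 were added to the U1 genes after the data were seen, with names from RefSeq (GRCh38.p14). U1 sequences were aligned end to end with Biopython 1.88.

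The members and lists were chosen with earlier results of these data known. Named loci were those called that averaged 1 FPKM or more in their higher group without overlap between groups, the 4 most abundant per line, and those overlapping a U1 or histone gene. The other loci named were chosen after their values were seen. Within 10 kb of a histone gene of 1q42, 0 loci had values. Of the 68 loci, 10 share 0.5 or more of their length, or of the other locus, with a locus of the same strand, and 13 overlap a coding gene on the same strand. Alternatives covered the pseudocount, the filter, the scaling, the limma settings, a replicate block, overlapping loci, the distance to a gene and each library left out.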

Additional observations from a re-analysis of the deposited data

How the results depend on the processing

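Over the alternatives that kept all libraries, 11 to 15 loci rose in HepG2 and 9 to 11 in LM3. Fewer fell in HepG2 without the filter on low values (1 locus in place of 4), with the replicate block (2) and without overlapping loci (1), and in LM3 without overlapping loci (4 in place of 7), where removing AC245297.3, LXLOC_001553 and LXLOC_001554 itself lowers the count. With 1 library left out, where the lone library is assumed to vary like the other group, 0 to 9 loci rose and 0 fell in HepG2, and 0 rose and 0 fell in LM3, where 1605 to 2366 of all loci had an unadjusted p under 0.05. The difference between lines gave 0 calls under every alternative. Loci called lower near U1 genes numbered 3 in HepG2 with a distance of 50 kb (0 with 10 kb), and in LM3 1 with 2 kb and 6 with 50 kb (2 with 10 kb), since a wider distance takes in more loci. Of 320 fold changes of named loci under alternatives that kept all libraries, 300 kept their call, 20 lost it and 0 changed direction, and of 132 without 1 library, 16 kept it and 0 changed direction. The cause of the lost calls was not tested.

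Centring the libraries moved the split of calls over all loci of LM3 to 700 higher and 770 lower, from 513 and 998, and that of the 68 loci to 11 and 6, from 10 and 7. In HepG2 it gave 809 higher and 786 lower over all loci, in place of 640 and 840, and 15 of the 68 loci higher in place of 12. Replicate numbers were shared between groups, but deviations of same-numbered libraries correlated at -0.0345 in HepG2 and 0.135 in LM3 over loci, with 2 pairs each, so the numbers were not taken as pairs. With the replicate block, 12 loci rose and 2 fell in HepG2, and 11 rose and 7 fell in LM3. With 2 libraries a group and FPKM alone, changes in loci under about 0.5 FPKM were mostly not resolved. With the filter left out, limma called 2 of 26 such members in HepG2 and 0 of 24 in LM3.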

Other observations

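Among the loci too low for the test, AC239803.2, ENSG00000287978, AC239809.3, LINC00624 and AC239799.2 had higher values in both JQ1 libraries than in both vehicle libraries of HepG2. LIX1L-AS1, AC242426.2, AC239800.2 and LINC02591 went the other way, with both JQ1 libraries below both vehicle libraries of HepG2, at 0 to 0.26 FPKM. The share of either kind among all low loci of the series was not counted. AC239803.2, a locus on the opposite strand past the end of RNU1-129P and just ahead of LINC02804, had 0.73 and 0.56 FPKM in HepG2 with JQ1, against 0.06 and 0 FPKM with vehicle. In LM3 it was tested and had 1.11 and 0.92 FPKM with JQ1, against 0.21 and 0.55 FPKM with vehicle (log2 fold change 0.81, adjusted p = 0.073). ENSG00000287978 lies beyond LXLOC_001507 on the same strand and just over 10 kb from LOC124904613. It had 0.85 and 0.69 FPKM in HepG2 with JQ1, against 0.17 and 0.2 FPKM with vehicle. In LM3 it had 0.87 and 1.07 FPKM with JQ1, against 0.66 and 0.42 FPKM with vehicle (adjusted p = 0.0987). AC239809.3 had 0.32 and 0.4 FPKM in HepG2 with JQ1, against 0.07 and 0.11 FPKM with vehicle, and 0.35 and 0.34 FPKM in LM3 with JQ1, against 0.07 and 0.17 FPKM with vehicle. LINC00624 and AC239799.2 were lower still, at 0.01 to 0.31 FPKM over both lines. With the filter left out, limma called AC239803.2 and ENSG00000287978 in HepG2 (adjusted p = 0.0308 and 0.0345), the only calls among 26 low loci there, and 0 of 24 in LM3, where no low locus had an adjusted p under the threshold.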
